A study of Mus musculus with 6 samples.

Results

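The Dlx, Msx and Barx homeobox genes are 10 genes, Dlx1 to Dlx6, Msx1, Msx2, Barx1 and Barx2, of the 25043 mouse genes that could be named in an RNA-seq table of mouse embryonic fibroblasts. The list was chosen with earlier results of these data in view, and each gene was represented by the transcript selected on the highest mean, so that the levels below are a description, with no test. The series compared WT fibroblasts (3 libraries) with fibroblasts null for Anp32e (Anp32e-/-, 3 libraries), a histone chaperone that removes the variant H2A.Z from chromatin. Both were primary cultures at low passage, grown in serum, and neither group carried another stated allele or agent. The embryonic age and whether the triplicates came from separate embryos were not given in the sources used here.

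The values used here are 1 mean per transcript over all 6 libraries. The table's columns of the genotype comparison were the authors' own and were not used, so no comparison of Anp32e-/- with WT is made, and the mean of Anp32e itself (2190 normalized counts) cannot check the genotype labels. For low means the whole reads of each library could be worked out from the mean. These libraries are named A to F in order of falling size factor, from 1.13 to 0.909. The mean carries no label of a library, so no library was assigned to a genotype, and the values of A to F are given side by side, without group means or tests. The total depth of each library is not known, and in bulk RNA fewer cells of a type and less RNA per cell cannot be told apart.

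Dlx, Msx and Barx proteins are transcription factors that bind DNA through a homeodomain. Dlx genes lie in convergently transcribed pairs, and in the embryo their nested domains pattern the pharyngeal arches, the limb ridge and the forebrain. Msx1 and Msx2 respond to bone morphogenetic protein (BMP) signals in arch, skull and limb mesenchyme. Barx1 marks jaw, molar and stomach mesenchyme, and Barx2 is best known from muscle and epithelia.

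Of the 10 genes, 9 had reads and 8 had a mean of 10 or more normalized counts (80%). The same level was reached by 97 of 195 other homeobox genes (49.7%) and by 14246 of all 25043 genes (56.9%). The median of the 10 means was 65.9, against 7.82 over the other homeobox genes and 43.4 over all genes. Dlx3 (12.3) and Dlx4 (11.6) lay just inside the minimum of 10, and Dlx6 (1.89) and Barx2 (0) lay below it.

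Msx2, a BMP-induced regulator of skull and limb mesenchyme, was the most abundant member, with a mean of 1797 normalized counts. Its transcript (NM_013601, 2 exons) comes from chr13:53466881-53472780 on the minus strand of GRCm38. Dlx2, an arch and forebrain patterning gene at chr2:71543408-71546754, followed with 1360. Msx1, required for teeth and palate, had 521 (chr5:37820491-37824585). Dlx1, the partner of Dlx2, had 500 (chr2:71528113-71533981). These 4 genes were too abundant for reads per library to be worked out, and only the authors' mean is given. Per counting error alone, approximate 95% Poisson intervals of the means were 1763 to 1831 for Msx2 and 1331 to 1390 for Dlx2. Those of Msx1 and Dlx1 were 503 to 539 and 482 to 518. They rest on a read total estimated from the pooled mean, since the reads per library were not known. The intervals of Msx1 and Dlx1 overlapped on this scale, which does not correct for length.

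The sequences next to the start of Msx2, Dlx2, Msx1 and Barx1 are shown because they differ in the binding letters of general promoter factors. RefSeq windows (GRCm38.p6) were at hand for Dlx1, Dlx2, Msx1, Msx2 and Barx1, which are 5 of the 10 members. The Dlx1 window lies inside the annotated span of the gene and was left out. The 250 bases before the start were searched on both strands for GGGCGG (a GC box, bound by SP factors), CCAAT (bound by NF-Y), TATAAA and the homeodomain core TAATTA. Overlapping matches were each counted. Capitals mark GC boxes and CCAAT boxes, and each run is given 5′ to 3′ on the strand of the gene.
Msx2, chr13:53472781-53473030, minus strand: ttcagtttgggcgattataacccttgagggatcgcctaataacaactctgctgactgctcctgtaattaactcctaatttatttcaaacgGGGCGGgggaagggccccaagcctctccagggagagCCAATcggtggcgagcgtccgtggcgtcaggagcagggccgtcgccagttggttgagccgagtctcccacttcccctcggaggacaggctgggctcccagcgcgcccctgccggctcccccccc
Dlx2, chr2:71546755-71547004, minus strand: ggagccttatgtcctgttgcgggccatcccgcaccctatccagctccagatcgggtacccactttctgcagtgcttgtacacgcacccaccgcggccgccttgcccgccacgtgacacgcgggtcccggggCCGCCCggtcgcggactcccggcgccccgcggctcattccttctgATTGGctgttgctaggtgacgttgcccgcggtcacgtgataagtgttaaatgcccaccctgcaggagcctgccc
Msx1, chr5:37824586-37824835, minus strand: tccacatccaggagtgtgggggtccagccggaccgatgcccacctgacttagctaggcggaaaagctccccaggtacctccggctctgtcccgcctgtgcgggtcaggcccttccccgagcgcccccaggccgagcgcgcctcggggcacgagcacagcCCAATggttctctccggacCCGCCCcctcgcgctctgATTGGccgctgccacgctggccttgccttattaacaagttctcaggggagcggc
Barx1, chr13:48662786-48663035, plus strand: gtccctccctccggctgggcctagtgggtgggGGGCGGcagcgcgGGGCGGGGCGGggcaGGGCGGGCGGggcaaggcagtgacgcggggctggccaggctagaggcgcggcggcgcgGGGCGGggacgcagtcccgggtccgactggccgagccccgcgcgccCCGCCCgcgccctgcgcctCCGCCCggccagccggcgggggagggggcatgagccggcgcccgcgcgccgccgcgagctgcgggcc

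The Barx1 window held 8 GC boxes, no CCAAT box and 40 CG dinucleotides. Its GC content of 85.6% lay above that of 99.9% of the 32851 windows searched, whose median was 52.4%. The Msx2 and Dlx2 windows each held 1 GC box and 1 CCAAT box, and the Msx1 window held 1 GC box between 2 CCAAT boxes. TATAAA was found in none of these windows, and TAATTA was found once, in Msx2, 187 bases before the start. Of all windows, 32.7% held GGGCGG, 33.8% CCAAT, 12.4% TATAAA and 4.84% TAATTA. A match describes letters and not a bound site.

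**Figure D1:**
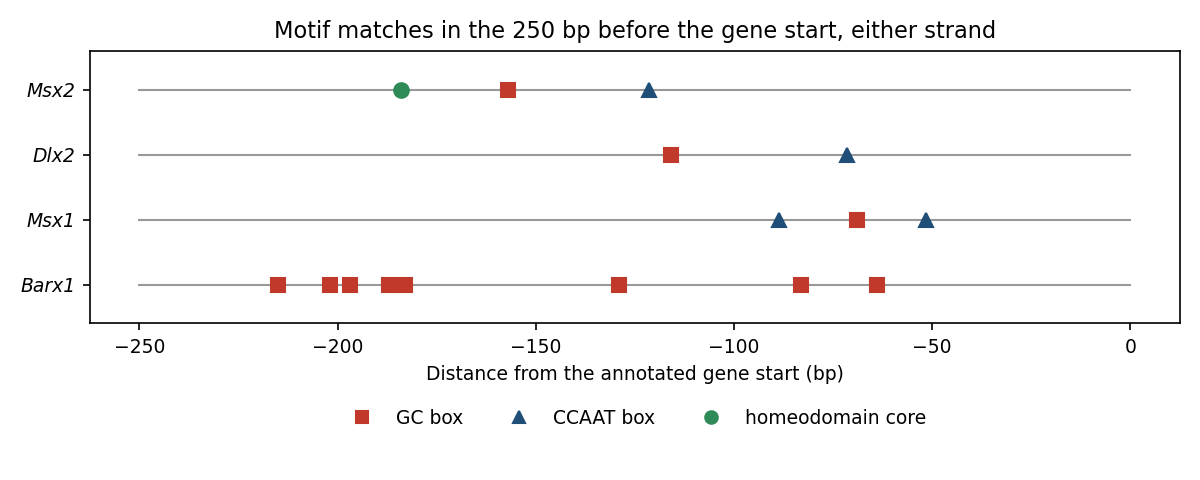
Motif matches on either strand (symbols) along the 250 bp before the start of Msx2, Dlx2, Msx1 and Barx1 (lines), with distance from the start in bp on the horizontal axis. The 8 GC boxes of Barx1 contrast with 1 in each of the other windows, and CCAAT boxes lie in Msx2, Dlx2 and Msx1.

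Levels of different genes were compared per kb of spliced transcript. On this scale the order of the mean normalized count per kb was Msx2 (733), Dlx2 (550), Msx1 (269), Dlx1 (122), Barx1 (65.0), Dlx5 (28.7), Dlx4 (5.06), Dlx3 (4.71), Dlx6 (1.76) and Barx2 (0). The approximate counting intervals of neighbours in this order did not overlap, except for Dlx4 (3.94 to 6.40) and Dlx3 (3.69 to 5.91). For Barx2 the upper limit used here was 3 reads over all libraries together (0.254 per kb). With 3 reads allowed in each library, the interval of Barx2 would overlap with that of Dlx6. Dlx1 has a long untranslated part, and per kb of coding length it stood above Msx1 (653 against 573). The order is one of pooled means and did not hold in every library. Barx1 had no read in 3 libraries, and in library F Dlx5 (1.55 per kb) was below Dlx4 (6.27 per kb).

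Within the linked pairs the 2 genes differed in unlike measure. Dlx2 exceeded Dlx1 by 4.53-fold per kb across a gap of 9426 bp. Dlx5 exceeded Dlx6 by 16.3-fold across 9830 bp. Dlx4 and Dlx3, 15150 bp apart on chromosome 11, differed by 1.08-fold in the pooled mean, within the counting error. This equality is an average of opposite differences, since library A had 25 Dlx3 and 2 Dlx4 reads and library E had 3 and 24. The unlinked Msx2 and Msx1 differed by 2.72-fold.

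Among the 166 homeobox genes with reads and a known length, Msx2 ranked 10 and Dlx2 ranked 13 in level per kb. The other homeobox genes with the highest means were Cux1 (6045 normalized counts, 2143 per kb) and the limb and arch mesenchyme genes Prrx2 (5327, 3696 per kb) and Prrx1 (4902, 983 per kb). Per kb, Msx2 lay between the Iroquois genes Irx1 (774) and Irx2 (656), and Dlx2 lay just above Pbx2 (520), which encodes a Hox cofactor. Msx1, at rank 26, lay between Tgif2 (275) and the distal limb gene Hoxd12 (233). Dlx1 was at rank 39 between Hoxa7 (132) and Zfhx3 (116). Barx1 was at rank 52 between Lmx1b (69.7), a dorsal limb gene, and Pbx4 (63.1). Dlx5 was at rank 72 between Hoxb6 (30.5) and Hhex (25.7). Dlx4 and Dlx3 were neighbours at ranks 98 and 99, between Lbx2 (5.12) and Zfhx2 (4.32). Dlx6, at rank 117, lay between Pou5f1 (1.78) and Mixl1 (1.46), and the gene next above Barx2 was Pax7 (0.0252).

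**Figure D2:**
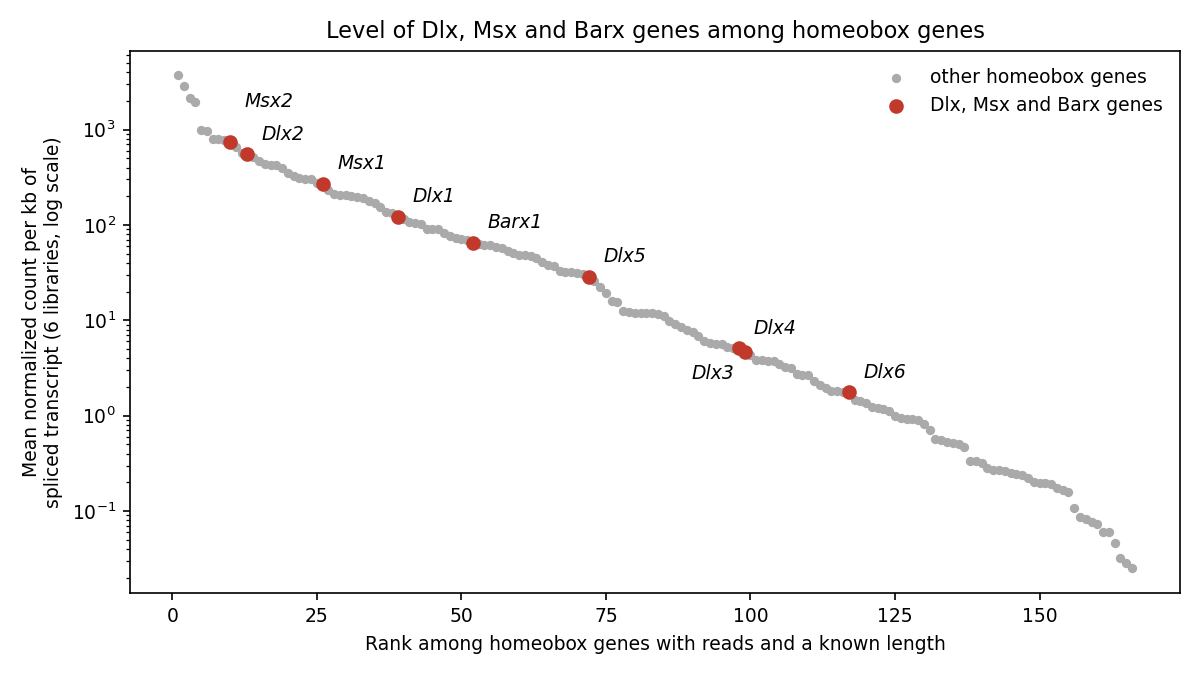
Mean normalized count per kb of spliced transcript over the 6 libraries (vertical axis, log scale) against rank among the 166 homeobox genes with reads and a known length. Red points are the 9 Dlx, Msx and Barx genes with reads, from Msx2 at rank 10 to Dlx6 at rank 117, and grey points are the other homeobox genes.

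Barx1, with a mean of 90.9 normalized counts (NM_007526, 4 exons, chr13:48663036-48666507, plus strand), did not have reads in every library. It had 240 reads in library A, 178 in B, 0 in C, 162 in D, 0 in E and 0 in F. Divided by the size factors these were 212 normalized counts in A, 169 in B and 164 in D. With the limit of 3 reads that a count of 0 allows, the libraries without reads could hold up to 3.30 normalized counts, the value for F. The values of A, B and D were thus far above the limit of C, E and F, and the 6 libraries did not form 1 continuous range. Among the 1701 autosomal genes with means from 50 to 200, 4 (0.235%) could be written with reads in 3 libraries or fewer, Barx1 among them.

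Dlx5, which directs lower jaw identity and osteoblast differentiation, had a mean of 40.8 (NM_010056, 3 exons, chr6:6877801-6882068, minus strand). Its other transcript, NM_198854, has the same mean and is no separate measurement. Dlx5 had 75 reads in A, 74 in B, 12 in C, 75 in D, 17 in E and 2 in F. The normalized counts were 66.3, 70.4, 11.7, 76.0, 18.2 and 2.20 in this order. The 95% counting intervals of A, B and D began at 52.2 or above, and those of C, E and F ended at 29.1 or below. The intervals of A, B and D overlapped one another, while F lay below E. Such a gap was not particular to Dlx5. Of 547 autosomal genes with means from 30 to 50, 79 (14.4%) had 3 libraries whose intervals lay above those of the other 3.

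Dlx6, the partner of Dlx5 at chr6:6863334-6867970 on the plus strand, was near the limit of these data, with 12 reads in all. It had 5 reads in A, 3 in B, 4 in D and 0 in C, E and F. Its counting intervals overlapped between all libraries, so that no single pair of libraries was separated beyond counting error. All of its reads lay in the libraries in which Dlx5 was high, and a difference between these sets of libraries was not tested. The study's methods name default settings for the counting and do not state how strand was handled. Equal means of transcripts of the same gene, as for Dlx5, show that reads were counted for more than 1 transcript. The exact settings are thus not known, nor whether reads of a gene and of an antisense gene were told apart. The noncoding Dlx6os2, which shares 104 exonic bases with Dlx6, had 5 reads in A, 2 in D and none in the other libraries. Dlx6os1 crosses the locus without exonic overlap, and NR_155495, its transcript with the highest mean, had 3 reads in A, 6 in B, 2 in C, 4 in D, 0 in E and 1 in F.

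Dlx3, a regulator of hair, enamel and placental development (NM_010055, chr11:95120117-95125296, plus strand), had a mean of 12.3. It had 25 reads in A, 30 in B, 2 in C, 10 in D, 3 in E and 7 in F. The normalized counts ran from 1.95 in C to 28.5 in B with a median of 8.92. Libraries A and B were above C and E beyond counting error, and D overlapped with every library but B.

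Dlx4, the partner of Dlx3 (NM_007867, chr11:95140447-95146294, minus strand), had a different profile from its neighbour. It had 2 reads in A, 8 in B, 7 in C, 13 in D, 24 in E and 13 in F. The normalized counts ran from 1.77 in A to 25.7 in E with a median of 10.4. The interval of E (16.4 to 38.2) lay above those of A, B and C and overlapped with those of D and F. Dlx4os, an antisense noncoding gene that shares 79 exonic bases with Dlx4, had 0 reads in A, 4 in B, 5 in C, 5 in D, 15 in E and 8 in F. Both were lowest in A and highest in E, and the part of shared reads in this was not tested.

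Barx2 (NM_013800, chr9:31846044-31913285) had 0 reads in all 6 libraries, which allows up to 3 reads in each library taken alone. Expression of Barx2 was thus not detectable at this depth.

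**Figure D3:**
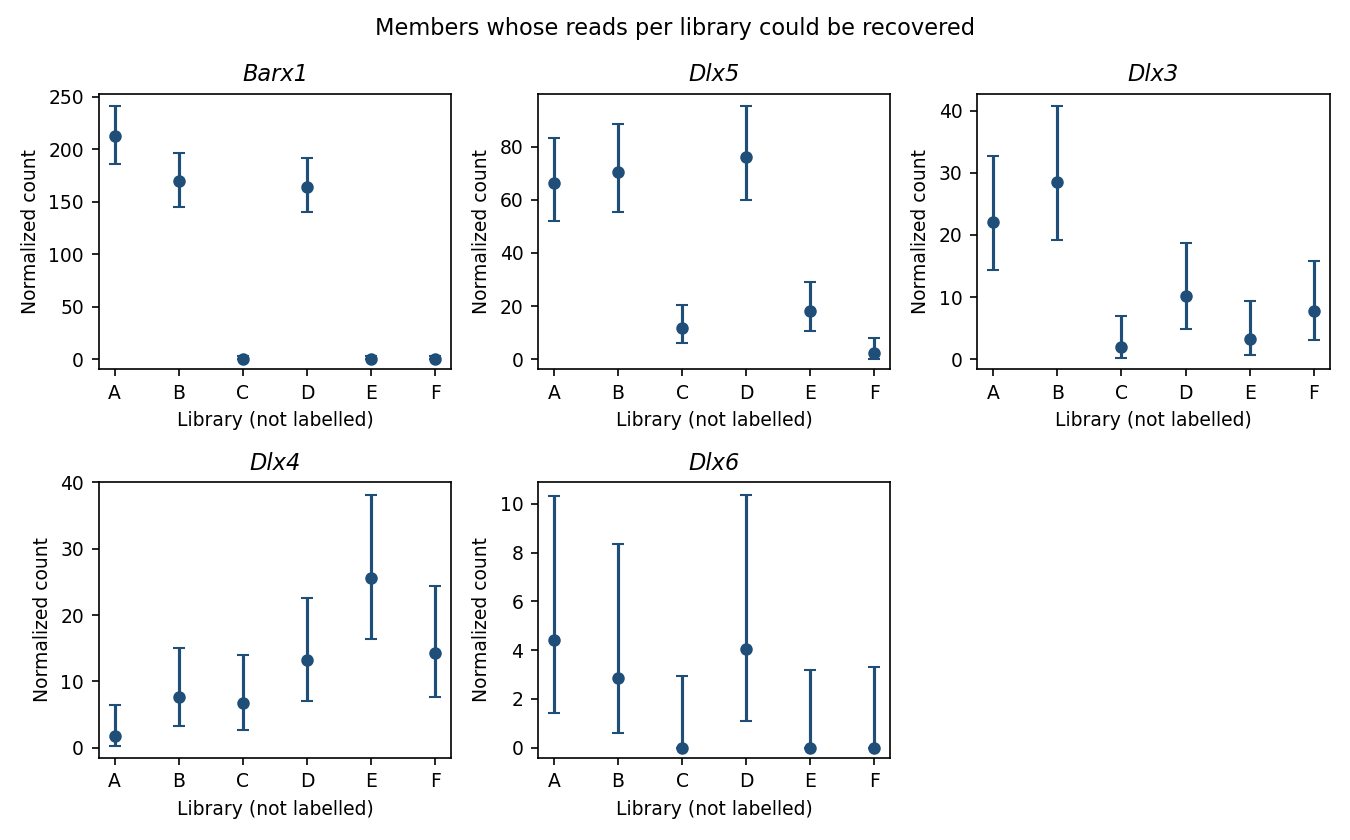
Normalized count (vertical axis) of Barx1, Dlx5, Dlx3, Dlx4 and Dlx6 in libraries A to F (horizontal axis), which carry no genotype label. Points are reads divided by the size factor and bars are exact 95% Poisson intervals for counting error only, or the limit of 3 reads where the count is 0. Barx1 and Dlx5 are high in A, B and D, whereas Dlx4 is highest in E.

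For the abundant members, antisense genes may also limit what the means stand for. Msx1os lies wholly within the span of the Msx1 locus (2188 bp) and had a mean of 408, against 521 for Msx1. Dlx1as overlaps the Dlx1 locus by 3344 bp and had a mean of 215, against 500 for Dlx1. How many reads such pairs share was not tested.

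The genes around these factors were taken from lists of BMP, endothelin and skeletal genes. Of the 53 genes, 45 had a mean of 10 or more, a level that 56.9% of all genes reached. All 10 BMP effectors and targets did, from Smad9 (1485) up to the inhibitors of differentiation Id3 (16746) and Id1 (11519). The highest of the intracellular mediators was Smad4 (5510), the shared partner of receptor-activated Smads. Among BMP ligands 4 of 7 reached this level, led by Bmp4 (846), Gdf6 (149) and Bmp6 (116). Bmp4 is the ligand best known to induce Msx genes.

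All 6 BMP receptors reached a mean of 10, led by Bmpr1a (3571), Bmpr2 (2763) and Acvr1 (776). All 8 antagonists did as well, among them Twsg1 (3665) and Bambi (2394). The 8 genes of the endothelin pathway, which acts upstream of Dlx5 and Dlx6 in the lower jaw arch, all passed, with the G protein Gna11 (11266), Plcb3 (7282) and Ece1 (3588) highest. Of the 14 skeletal targets and partners, 9 passed. Spp1 (29392), Col1a1 (26142) and Twist1 (1958) were highest, and the bone matrix gene Ibsp had no read.

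**Figure D4:**
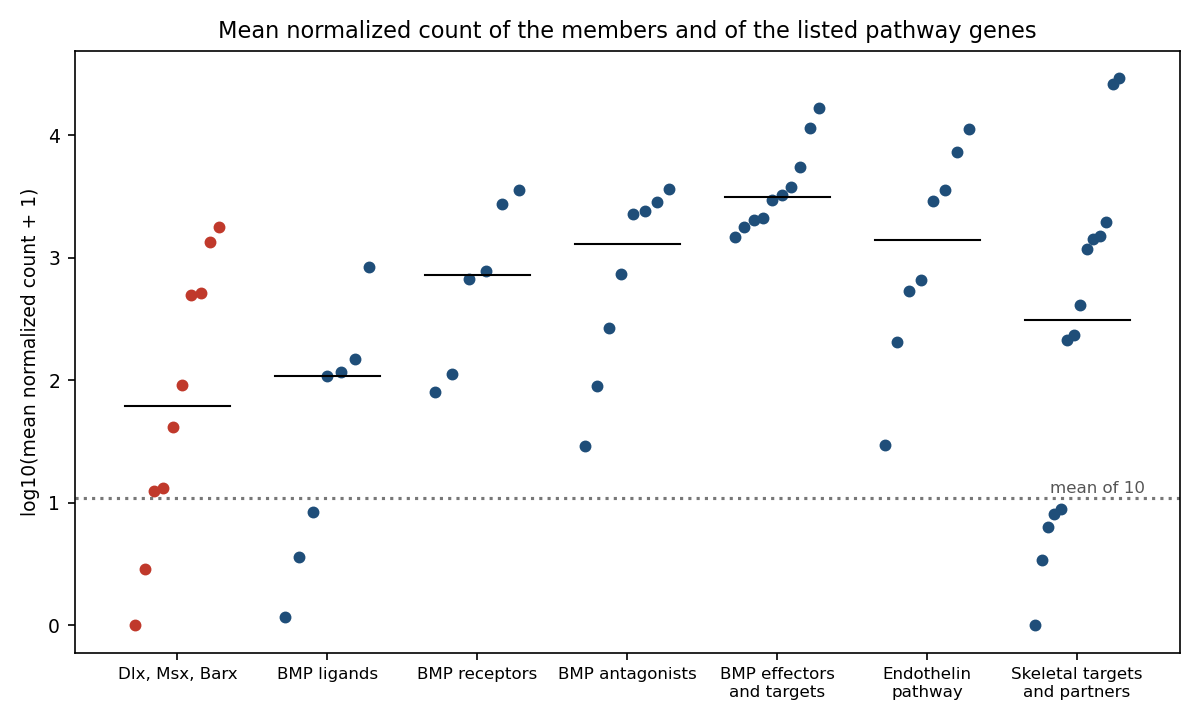
Mean normalized count over the 6 libraries, as log10(mean + 1), of each member (red) and of each listed pathway gene (blue), ordered by level within its list. Lines are medians of the plotted values and the dotted line is a mean of 10, which 8 of 10 members and all listed BMP receptors, antagonists, effectors and endothelin pathway genes pass.

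Reads per library could be worked out for 12 of the 53 genes, those under a mean of 95. These genes are named for that reason and not for their pattern. Ednra, the endothelin receptor of arch mesenchyme, had 36 reads in A, 36 in B, 23 in C, 34 in D, 24 in E and 21 in F. Its normalized counts ran from 22.4 in C to 34.4 in D, 1.54-fold at most, and all intervals overlapped. The values of A, B and D were 31.8 or above and those of C, E and F 25.7 or below, a difference that was not tested. The receptor Acvr2b (mean 78.9) differed by 1.60-fold at most between libraries.

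The antagonist Nog had 124 reads in A, 133 in B, 58 in C, 111 in D, 70 in E and 53 in F, a range of 2.24-fold after normalization. Chrdl1 had 54, 27, 20, 43, 20 and 11 reads in the same order, a range of 3.95-fold. Normalized counts of Nog were 110 or above in A, B and D and 74.8 or below in C, E and F. Those of Chrdl1 were 25.7 or above in A, B and D and 21.4 or below in C, E and F. Some intervals overlapped between these sets of libraries in both genes.

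The ligand Bmp5 had 4 reads in A, 3 in B, 9 in D and none in C, E and F, which is near the limit of the data. Gdf5, a joint marker, had 5, 17, 7, 6, 4 and 6 reads in libraries A to F, highest in B, with intervals that overlapped. Bmp7 had 1 read in all. Gsc, an arch homeobox gene downstream of endothelin signals, had 20 reads in A, 5 in B, 2 in C, 15 in D, 3 in E and 0 in F.

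The osteoblast genes each had an order of their own. Sp7, the osteoblast transcription factor that acts after Runx2, had 3, 15, 8, 13, 2 and 7 reads in libraries A to F. Alpl, the bone alkaline phosphatase, had 13, 0, 1, 3, 4 and 11. Bglap, which encodes osteocalcin, had 5, 2, 4, 0, 4 and 0. After normalization, Ednra, Nog, Chrdl1, Bmp5 and Gsc were each higher in A, B and D than in C, E or F. Acvr2b, Gdf5, Sp7, Alpl and Bglap did not have this order. A difference between these sets of libraries was not tested.

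**Figure D5:**
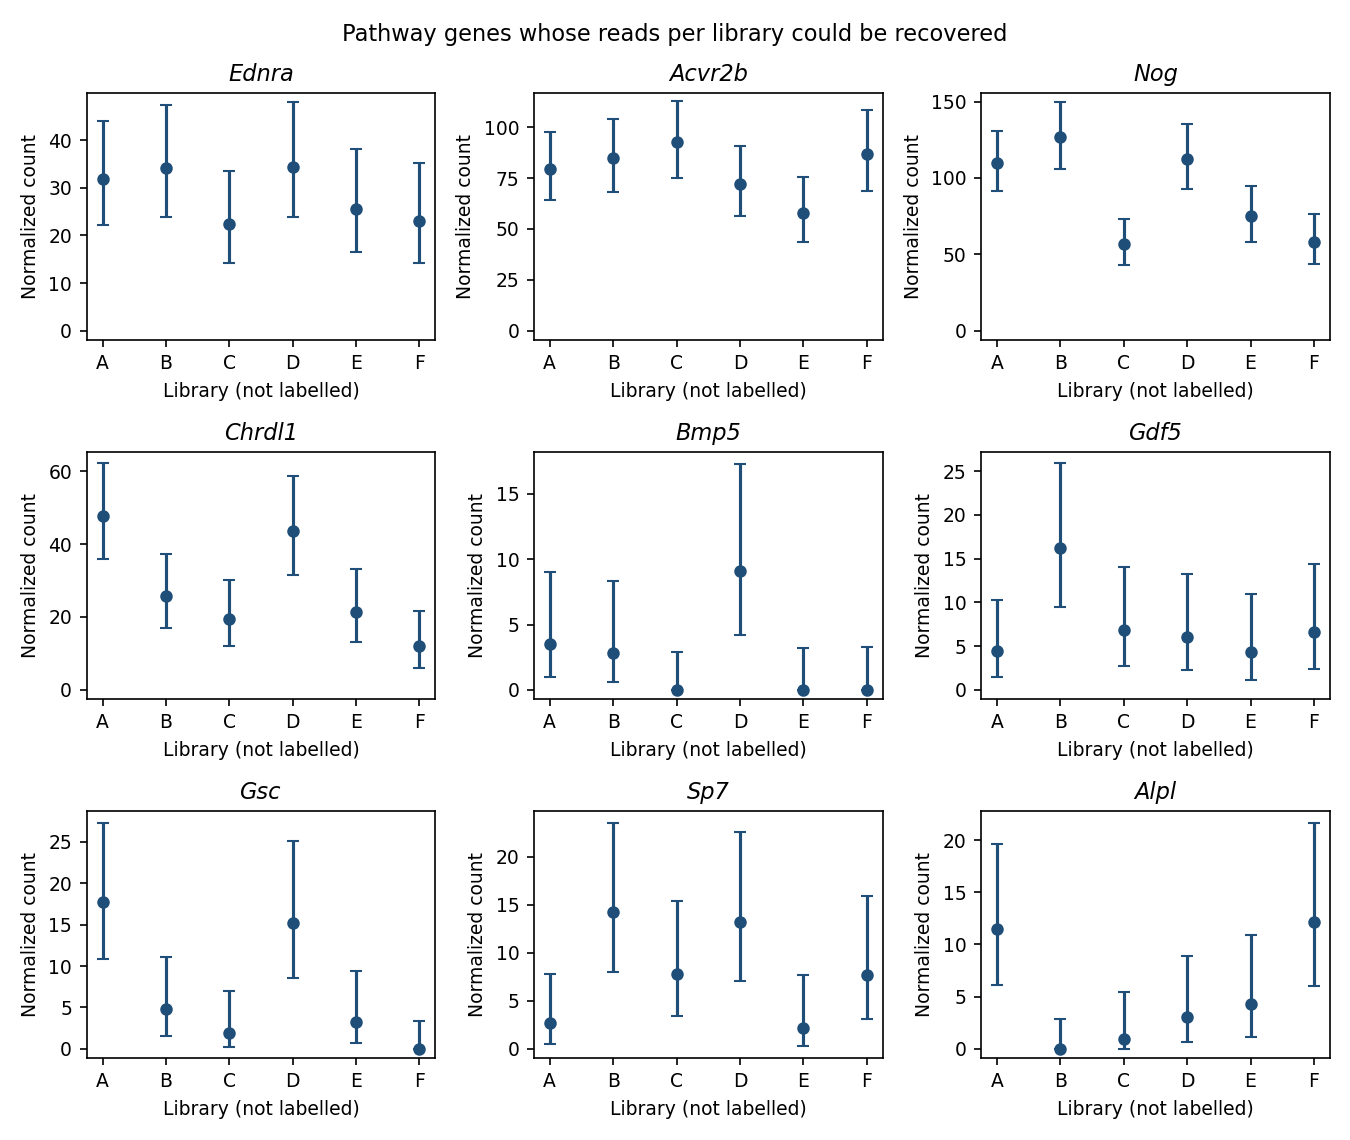
Normalized count (vertical axes) of 9 pathway genes in libraries A to F (horizontal axes), which carry no genotype label. Points are reads divided by the size factor and bars are exact 95% Poisson intervals for counting error only, or the limit of 3 reads where the count is 0. The intervals of Ednra overlap between all libraries, and Nog runs from 56.5 in C to 126 in B. Both genes are higher in each of A, B and D than in C, E or F.

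The cells were checked against marker lists. Of 15 fibroblast markers, 13 had a mean of 10 or more, led by Vim (330695), S100a4 (87080) and Fn1 (86443), and none was at 0. All 6 mesothelial markers passed, led by Krt19 (7400). Fewer passed in the other lists, and each held some high genes. Of all genes 56.9% passed, so that 4 of 6, 4 of 8 or 3 of 6 markers lie near the share of all genes. Of the chondrocyte markers 4 of 6 passed, with Col2a1 (577) highest and Col9a1 at 0. Of the epithelial markers 4 of 8 passed, with the keratin Krt18 (1106) highest and Esrp1 at 0. Of the endothelial markers 3 of 6 passed, with the VEGF receptor Kdr (2958) highest. Of the macrophage markers 2 of 6 passed, with Cd68 (257) highest. Of the neuron markers 2 of 6 passed, namely Map2 (1656) and Tubb3 (737), with Gad1 and Snap25 at 0. Neural crest and glial markers (2 of 6) were led by Erbb3 (97.2), with Foxd3 at 0. Skeletal muscle markers (2 of 6) were led by Ttn (67.6), with Myod1 and Myf5 at 0. Osteoblast markers (1 of 6) held Runx2 (1188), with Ibsp at 0.

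Reads per library could be worked out for 43 of the 71 markers. The summed normalized counts of 7 of the 8 epithelial markers were 28.3 in A, 55.2 in B, 198 in C, 56.7 in D, 173 in E and 173 in F. Those of 5 of the 6 endothelial markers were 44.2 in A, 38.0 in B, 157 in C, 56.7 in D, 143 in E and 152 in F. Both sums were lowest in the libraries in which Barx1 had reads and Dlx5 was high, but each rested mainly on a single gene. Cdh1 was 148 in C, 112 in E and 124 in F, and at most 7.96 in A, B and D. Vwf was 106 in C, 77.0 in E and 110 in F, and at most 9.73 in A, B and D. Not every marker had this order, since Cldn4 was lowest in E (1.07) and highest in B (19.0), and Pecam1 was highest in D (12.2). The highest marker of each list, Krt18 and Kdr, was too abundant to be included. The sums of 4 of the 6 chondrocyte markers were 61.0 or below in A, B and D and 109 or above in C, E and F, from 39.5 in D to 166 in F. Those of 5 of the 6 macrophage markers were 38.0 or below in A, B and D and 51.6 or above in C, E and F, from 28.3 in A to 64.1 in E. These sums were thus also lowest in A, B and D. The macrophage sums were mostly Csf1r, at most 29.5 in A, B and D and at least 49.6 in C, E and F. Ptprc was highest in D (6.08), and Cd68 was too abundant to be included. The high chondrocyte sums were mostly Comp (18.2 in D and 161 in F). Acan went the other way, with 27.4 in A, 29.5 in B and 21.3 in D, and at most 5.50 in C, E and F. Col2a1 and Sox9 were too abundant to be included. The 6 skeletal muscle markers ran from 118 in D to 148 in A, and 5 of the 6 neural crest and glial markers from 15.4 in F to 67.9 in D. The sums of 5 of the 6 osteoblast markers were lowest in E (10.7) and highest in F. Those of 4 of the 6 neuron markers ran from 0 to 5.50 in F, and those of 2 of the 15 fibroblast markers from 0 in E to 15.2 in B. These 2 were Lum (mean 1.33) and Fap (3.22), the fibroblast markers under a mean of 10, and they do not stand for the list. The part of other cell types in the profiles of the members was not tested.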

How the data were processed

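Total RNA of WT and Anp32e-/- mouse embryonic fibroblasts was sequenced by the authors with a stranded total RNA kit, aligned to mm10 with STAR, counted with featureCounts and normalized with DESeq2. The deposited signal column holds the mean of the counts divided by size factors over the 6 libraries, for 42361 RefSeq transcripts. The other columns hold the authors' fold change of the groups with its standard error, statistic and p-values, and were not used. The methods give default settings for the counting.

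RefSeq accessions were matched to 25043 genes (GRCm38.p6), with 158 transcripts left out. Where a gene had several transcripts, the one with the highest mean stood for it. Of 23446 transcripts with reads from genes with several, 8067 had the same mean as another of their gene. Lengths came from GENCODE M21, for 17323 of 19275 genes with reads. The named genes were all members, up to 3 of each list with the highest means, those of each list without reads, and the nearest homeobox genes in level per kb, of which some are not reported here. Pathway and marker genes under a mean of 95 and antisense genes were added after values were seen. Members and lists were chosen with earlier results of these data known.

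A mean is a sum of whole reads, each worth 1 step that depends on the library. The 6 steps were read from the lowest means and refined on 1500 low means, and the combination of 6 whole numbers that gives the written 15 digits was sought for means under 95. The true combination is always among the solutions, so a single solution is exact. Of 2268 distinct means tried, 2267 gave 1 combination and 1 gave several. Most of these were low, with 2000 under 10. Only 8 lay between 40 and 95, of which 7 gave 1 combination. Each gene whose reads are given by library had a single solution, except that Tspan8 was searched over 3 libraries only. To count genes with reads in few libraries, means from 50 to 200 were searched for combinations of any 3 of the 6 libraries, without a search over all 6 for means above 95. The search was tested on simulated data, whose means did not reach those of the most abundant genes given by library, such as Barx1 and Nog. It uses the mean column alone, and the libraries so found carry no labels. Poisson intervals (95%) and the limit of 3 counts for a count of 0 cover counting error only. The planned count test of the genotypes needs labelled counts per library and was not made. Python 3.11.15 tools were used (numpy 2.4.6, pandas 2.3.3, scipy 1.17.1).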

Additional observations from a re-analysis of the deposited data

How the results depend on the processing

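With the minimum mean at 5, the members at or above it were 8, as at 10, and with the minimum at 50 they were 5. Leaving out each recovered library in turn, an alternative chosen after seeing the data, gave 7 to 8 members at a mean of 10 or more. Dlx3 fell to 9.02 without library B and Dlx4 to 8.73 without library E. The mean of Barx1 ran from 66.7 to 109 and that of Dlx5 from 33.8 to 48.5. Taking the coding length in place of the spliced length exchanged Dlx1 and Msx1 and kept the places of the other 8 members. Msx2 lay at percentile 72.4 of the genes with reads, at 62.6 of those with a mean of 10 or more, at 68.4 of the coding genes and at 75.3 per kb. The transcript with the lowest mean gave the same level for all 10 members. This alternative could not differ, since every member but Dlx5 has a single transcript and both transcripts of Dlx5 have the same mean. No paired analysis was possible because the table gives no value per labelled library. For the same reason the planned genotype comparison and its alternatives (other size factors, no filter, each replicate left out) were not run. Depth limits Dlx6, with 12 reads in all, and Barx2, with 0.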

Other observations

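The libraries fell into separate clusters for some genes. Barx1 had 240, 178 and 162 reads in libraries A, B and D and 0 in C, E and F. Among the 1701 autosomal genes with means from 50 to 200, 4 could be written with reads in 3 libraries or fewer. Besides Barx1, these were Cwh43 (156, 95 and 114 reads in A, B and D), Tspan8 (271, 189 and 158 reads in C, E and F, where its mean of 107 allows other combinations over all 6 libraries that were not searched) and Apela (115, 105 and 109 reads in C, E and F). Cwh43 encodes a protein of GPI anchor remodelling, Tspan8 a tetraspanin and Apela a peptide ligand of the apelin receptor. These genes were named after their values were seen. In all 4 the reads lay either in A, B and D or in C, E and F. Of the 79 genes with means from 30 to 50 that had a gap between 3 libraries and the other 3, 36 were higher in A, B and D and 43 in C, E and F. The mean carries no label of a library, and neither a genotype nor a culture was assigned to either set.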
